A study of Mus musculus with 2 samples.

Results

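The 10 genes described here encode enzymes of cornification and proteins that keratinocytes make late in their differentiation: Tgm1, Tgm3, Casp14, Krtdap, Sbsn, Dmkn, Cnfn, Calm4, Lypd3 and Grhl1. They were taken by symbol, each through a probe set annotated to that symbol alone, from 19937 genes that could be named on the array. All 10 had a value, and each had 1 probe set. The study measured RNA of medullary thymic epithelial cells (mTEC) sorted from B6 mice aged 6 weeks that were homozygous for a floxed Hdac3 allele. Mice of the group labelled WT carried the floxed alleles with no Cre named, and mice of the group labelled HDAC3cKO also carried Foxn1-Cre, in which the promoter of a thymic epithelial transcription factor drives the recombinase. The sorted cells of both groups were EpCAM-positive and CD45-negative, with little Ly51 and little MHC class II. RNA was taken from pools of about 30000 sorted cells, which usually needed 10 to 30 mice of the HDAC3cKO genotype.

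Cornification is the terminal programme of stratified epithelium, in which a keratinocyte replaces its plasma membrane with a crosslinked protein envelope coated with lipid. Transglutaminases make the crosslinks, proteases trim the precursors, and secreted and membrane-anchored proteins appear in the layers above the basal cells. In the thymic medulla some epithelial cells take on keratinocyte-like features late in their life and form Hassall's corpuscles, so transcripts of this programme are found in mTEC.

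Each group was measured on 1 array. There is therefore no replicate error and no test between the groups, and a gene called higher or lower is so on this pair of arrays. Differences are log2 intensities, HDAC3cKO minus WT, and a gene was counted when the difference reached 2-fold. The level of Hdac3 was higher, not lower, on the HDAC3cKO-labelled array, with a difference of 0.74, which goes against that label as far as a probe set that may cover undeleted exons can check it. The arrays are therefore named by their labels, and every direction rests on them. The mTEC markers were present on both arrays: the 12 measured markers had log2 levels of at least 9.78 on the WT-labelled array and at least 8.50 on the HDAC3cKO-labelled array, and of the 12, 2 were at least 2-fold lower (Fezf2 at -2.97 and Krt14 at -1.36) and 1 higher (Pdpn at 1.46). Epcam and Aire differed by -0.27 and -0.55, and Ptprc, which encodes CD45, by -0.84. H2-Aa, H2-Ab1 and Cd74, genes of MHC class II presentation among the 12, differed by 0.01, 0.16 and -0.13. Their log2 levels were at least 13.3 on both arrays, although the cells were sorted for little MHC class II. The median intensity over all probe sets was 183.2 and 177.0 on the WT-labelled and HDAC3cKO-labelled arrays.

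Sbsn, Dmkn and Krtdap lie next to each other on the chromosome and encode secreted proteins of the upper epidermal layers. Their upstream sequences are shown because the 3 genes were lower together, and those of Calm4 and Lypd3 because these had the lowest differences of the 10. Each run gives the 250 bases before an annotated start, 5' to 3' in the direction of the gene, from RefSeq on GRCm38.p6. Capitals mark matches to the motifs searched on both strands, which were TGANTCA of the AP-1 type, CCNCACCC of the Klf type, TGGGAA of the RBPJ type and AACCNGTT of the grainyhead type.
Sbsn chr7:30751221-30751470 (plus strand): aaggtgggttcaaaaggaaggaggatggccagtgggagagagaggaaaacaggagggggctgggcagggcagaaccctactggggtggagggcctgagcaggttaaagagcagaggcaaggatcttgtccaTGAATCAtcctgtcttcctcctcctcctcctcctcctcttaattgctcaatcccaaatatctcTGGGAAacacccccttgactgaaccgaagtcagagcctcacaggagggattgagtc
Dmkn chr7:30763506-30763755 (plus strand): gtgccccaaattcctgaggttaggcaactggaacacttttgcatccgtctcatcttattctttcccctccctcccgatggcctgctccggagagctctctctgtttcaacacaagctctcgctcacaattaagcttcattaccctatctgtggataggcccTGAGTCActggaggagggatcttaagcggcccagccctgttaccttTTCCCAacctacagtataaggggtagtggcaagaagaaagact
Dmkn chr7:30776155-30776404 (plus strand): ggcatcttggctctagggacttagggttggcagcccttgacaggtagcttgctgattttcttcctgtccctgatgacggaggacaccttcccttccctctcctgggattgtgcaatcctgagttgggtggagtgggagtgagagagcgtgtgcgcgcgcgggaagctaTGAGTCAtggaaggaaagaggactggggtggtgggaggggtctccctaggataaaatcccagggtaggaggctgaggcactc
Krtdap chr7:30787655-30787904 (plus strand): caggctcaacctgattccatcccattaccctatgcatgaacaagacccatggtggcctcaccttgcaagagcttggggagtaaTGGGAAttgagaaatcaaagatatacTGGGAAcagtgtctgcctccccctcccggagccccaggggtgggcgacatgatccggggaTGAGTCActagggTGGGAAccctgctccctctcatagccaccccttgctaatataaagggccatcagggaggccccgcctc
Calm4 chr13:3837507-3837756 (plus strand): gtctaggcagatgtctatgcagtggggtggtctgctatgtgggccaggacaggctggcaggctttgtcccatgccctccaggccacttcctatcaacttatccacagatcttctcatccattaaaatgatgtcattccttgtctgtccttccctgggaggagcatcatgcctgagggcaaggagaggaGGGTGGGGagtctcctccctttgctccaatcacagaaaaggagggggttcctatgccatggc
Lypd3 chr7:24636320-24636569 (plus strand): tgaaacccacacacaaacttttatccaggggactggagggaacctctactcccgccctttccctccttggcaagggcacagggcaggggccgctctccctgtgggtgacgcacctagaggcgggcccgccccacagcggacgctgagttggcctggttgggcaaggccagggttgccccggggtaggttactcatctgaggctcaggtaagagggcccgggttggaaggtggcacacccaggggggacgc

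TGANTCA was found upstream of all 3 neighbouring genes and of none of the other 7. The match was TGAGTCA at -81 from the Krtdap start, at -89 and -82 from the Dmkn starts shown, and TGAATCA at -119 from the Sbsn start. The table listed 14 windows for the 10 genes, of which 5 held this motif, among them 2 Dmkn windows that overlap almost entirely. Over all 32851 upstream windows 6.75% held it. TGGGAA was found in 6 of the 14 windows, those of Tgm1, Krtdap, Sbsn, Dmkn and Cnfn, against 21.6% of all windows, and Krtdap held 3 copies. CCNCACCC was found in 3 of the 14, those of Casp14, Cnfn and Calm4, against 14.9% of all windows. AACCNGTT was in none of the 14 and in 1.79% of all windows. Lypd3 held none of the 4 motifs in its window. A match describes these letters and is not a binding site.

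All 10 genes were lower on the HDAC3cKO-labelled array than on the WT-labelled array, and 8 of them were at least 2-fold lower. None was higher. Over all named genes 5.88% were 2-fold lower or more and 2.97% higher by that much. Lypd3, Calm4 and Krtdap, 3 of the 10, were at least 4-fold lower, as were 1.85% of all named genes. The median difference of the 10 was -1.87, or 3.66-fold, beside a median of 0.01 over all named genes. Their differences ran from -3.32 for Lypd3 to -0.22 for Tgm1. Of the 10, 8 lay at or below the 5th percentile of all gene differences and 6 at or below the 2.5th. In pooled RNA, fewer cells that express these genes and less of their RNA per cell cannot be told apart.

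**Figure D1:**
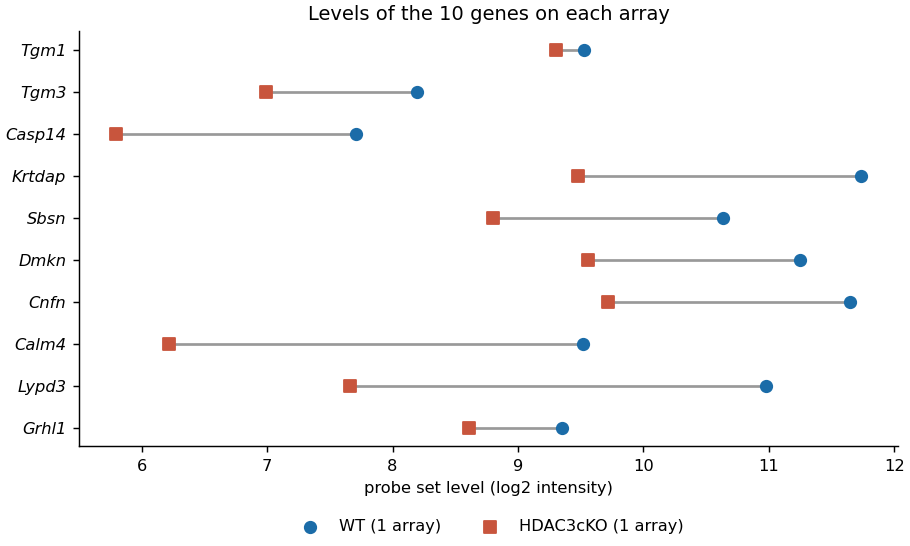
Log2 intensity of each gene's probe set on the WT-labelled array (circles) and the HDAC3cKO-labelled array (squares), with a line joining the 2 values; each point is 1 array and there are no error bars. Every square lies to the left of its circle, with the longest lines for Lypd3 and Calm4 and the shortest for Tgm1.

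The 6 late differentiation proteins were all at least 2-fold lower, by differences between -3.32 and -1.69. Lypd3, a membrane-anchored protein of the Ly6 and uPAR family found on suprabasal keratinocytes, had an intensity of 2016 on the WT-labelled array and 202 on the HDAC3cKO-labelled array, a 9.96-fold difference. Calm4, a calmodulin-like calcium-binding protein of skin, had intensities of 734 and 74.2 in the same order and was 9.88-fold lower. These 2 genes stood at ranks 60 and 62 from the lowest among the 19937 genes.

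The neighbouring genes Sbsn, Dmkn and Krtdap were lower by similar amounts. Krtdap, a small secreted protein made as keratinocytes begin to differentiate, had an intensity of 3413 on the WT-labelled array and 714 on the HDAC3cKO-labelled array, a difference of -2.26 or 4.78-fold. Sbsn, suprabasin, had intensities of 1592 and 447 in the same order and was 3.56-fold lower. Dmkn, dermokine, had intensities of 2433 and 752 and was 3.24-fold lower. The Dmkn probe set is annotated to several transcripts, so its value is not assigned to either of the starts shown. Cnfn, cornifelin, a small component of the envelope encoded elsewhere on the same chromosome, had intensities of 3201 and 843 and was 3.80-fold lower, within the range of those 3 genes.

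The 3 enzymes had differences from -1.91 to -0.22. Casp14, a caspase of cornifying cells that takes part in the breakdown of filaggrin rather than in cell death, had an intensity of 209 on the WT-labelled array and 55.6 on the HDAC3cKO-labelled array, a difference of -1.91 or 3.76-fold. The lower value is under the lower quartile of all probe sets on that array, 59.9, and with no detection calls the fold may understate the difference. Tgm3, the transglutaminase that crosslinks small envelope precursors and hair follicle proteins, had intensities of 294 and 127 and was 2.31-fold lower. Tgm1, the membrane-anchored transglutaminase that assembles the envelope at the cell edge, had intensities of 738 and 632 and a difference of -0.22. Tgm1 was thus within 2-fold, at percentile 24.7 of all gene differences, while both other enzymes were under percentile 5.

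Grhl1, a grainyhead transcription factor that regulates desmosomal cadherin genes in epidermis, was the only transcription factor among the 10. Its intensity was 652 on the WT-labelled array and 389.6 on the HDAC3cKO-labelled array, a difference of -0.74 or 1.67-fold, at percentile 8.50. Grhl1 and Tgm1 were the 2 genes within 2-fold. With 1 array a group, no order among genes with close differences, such as Casp14, Cnfn, Sbsn and Dmkn, can be given.

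**Figure D2:**
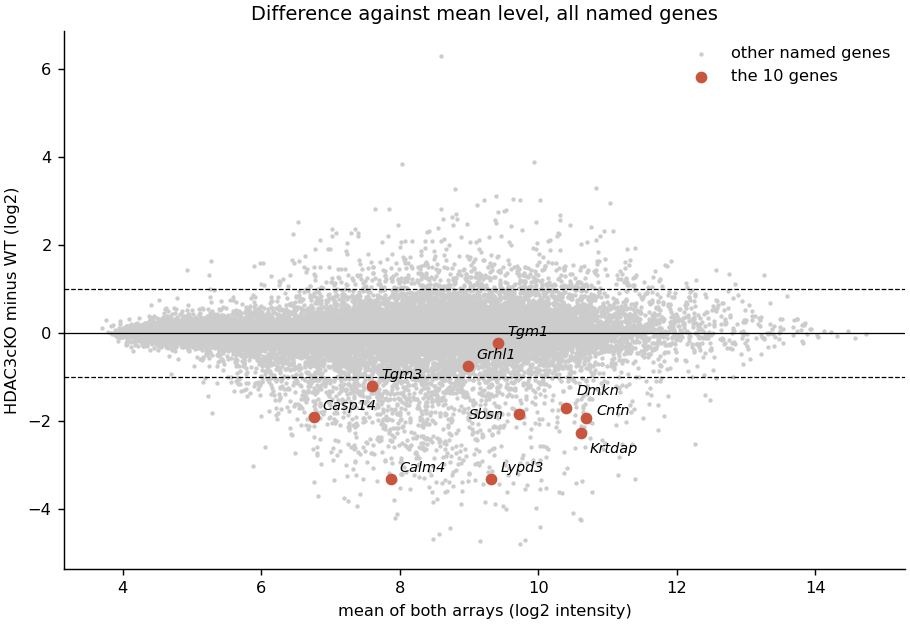
Difference between the arrays (HDAC3cKO minus WT, log2) against the mean of both arrays (log2 intensity) for 19937 named genes in grey, with the 10 genes in red; dashed lines mark 2-fold. The red points lie below 0, 8 of them below the lower dashed line, and Casp14, Tgm3 and Calm4 lie at the lowest means.

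The mean over both arrays was above the median of all genes, 8.03 on the log2 scale, for 7 of the 10. Tgm3, Casp14 and Calm4 were below it. On the WT-labelled array, 9 of the 10 lay at or above that value, and on the HDAC3cKO-labelled array 6 did. The non-member genes closest to the median levels of the 10, 10.08 on the WT-labelled array and 8.70 on the HDAC3cKO-labelled array, were Sh3bgrl2, Reep6, Ypel2, Srgap1 and Irak3, at Euclidean distances over the 2 arrays of up to 0.092 log2 units.

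In some protein families relatives of the 10 genes went in different directions. In others they mostly went the same way: all 6 measured calmodulin genes and 18 of 20 listed Ly6 and uPAR genes were below 0. The counts in each family stand beside 5.88% of all named genes that were lower by 2-fold or more and 2.97% that were higher. The transglutaminase family had 9 genes with a value, of which 2 were lower and 1 was higher by 2-fold or more, and a median of -0.20. Tgm5, an epidermal transglutaminase, differed by -1.46 or 2.75-fold lower, beside Tgm3 at -1.21. Tgm2, the widely expressed tissue transglutaminase, was 3.02-fold higher, at a difference of 1.60. The other members, Tgm4, Tgm6, Tgm7, F13a1 and Epb42, differed by between -0.39 and 0.06. Of the 3 epidermal transglutaminases, Tgm3 and Tgm5 were thus lower by 2-fold or more and Tgm1 was not.

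Casp14 was the only one of 8 measured caspases that was at least 2-fold lower. Casp12, a caspase of the inflammatory group, was 2.75-fold higher, and the inflammatory caspase Casp1 differed by -0.75. The initiator caspases Casp8 and Casp9 differed by 0.03 and -0.04, and Casp6, an effector caspase, by -0.26.

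Of 6 measured genes of the calmodulin family, 3 were at least 2-fold lower. Calml3, a calmodulin-like protein of epithelium, was 10.5-fold lower and Calml4 4.39-fold lower, beside Calm4 at 9.88-fold. The ubiquitous calmodulin genes Calm2 and Calm3, calcium sensors of all cells, differed by -0.62 and -0.27. Calm5, next to Calm4 on the chromosome, differed by -0.39 and had a log2 level of 5.71 on the WT-labelled array. Probe sets of related calmodulin genes can pick up each other's transcripts, which these values do not resolve.

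Of 20 measured genes on a list of the Ly6 and uPAR family, 7 passed 2-fold in the lower direction and none in the higher. The median of the 20 was -0.59. The list does not hold the whole family. Cd177, Lypd10 and Lypd11, which lie near Lypd3 and differed by -3.59, 0.19 and 0.06, were not on it. Ly6g6c and Lypd8 were 9.33-fold and 8.82-fold lower, close to Lypd3. Lypd5 differed by -2.95 and Lypd1 by -2.62. Ly6d, a marker of stratified epithelium, differed by -0.21, and Plaur, the urokinase receptor, by -0.08. Of the PLAC8-domain genes, Plac8 was 8.35-fold lower beside Cnfn at 3.80-fold, and Plac8l1 differed by 0.03.

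The grainyhead genes Grhl2 and Grhl3 had differences above 0, unlike Grhl1. Grhl2, which maintains epithelial junction genes, differed by 0.95, and Grhl3, needed for epidermal barrier formation, by 0.72, both above 0 and within 2-fold. Tfcp2l1 of the related CP2 branch was 2.43-fold lower, and Tfcp2 and Ubp1 differed by 0.02 and 0.11.

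**Figure D3:**
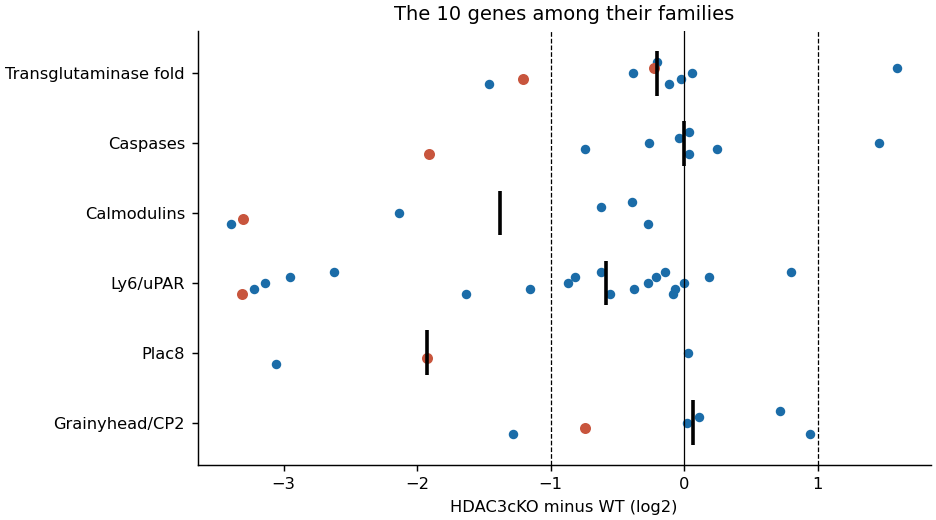
Differences (HDAC3cKO minus WT, log2) of the measured genes on lists of 6 protein families, with the genes of the set of 10 in red, relatives in blue and the list median as a black bar; dashed lines mark 2-fold. Tgm2 at 1.60 and Casp12 at 1.46 lie on the opposite side from Tgm3 and Casp14. The listed calmodulin genes spread from -3.39 to -0.27 and the listed Ly6 and uPAR genes from -3.32 to 0.80.

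The rest of the cornification pathway was described through 4 lists that hold 65 measured genes, none of them among the 10. Their median was -0.99. Lower by 2-fold or more were 32 of the 65, and higher by as much were 3, beside 5.88% and 2.97% over all named genes. Under some alternative settings of the processing Nipal4, Flg2 and Prss8 came within 2-fold, and Dsg1b passed 2-fold in the lower direction. The lists differed in how many of their genes were lower.

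Among 17 measured envelope precursors, the structural proteins that transglutaminases crosslink, 11 passed 2-fold in the lower and 1 in the higher direction, and the median was -2.11. Lor, loricrin, was 11.5-fold lower and Rptn, repetin, 9.35-fold lower. Hrnr, hornerin, was 21.2-fold lower and Ivl, involucrin, 8.67-fold lower. Sprr3, a small proline-rich precursor of internal stratified epithelia, was 6.08-fold higher, from a log2 level of 7.53 to 10.13, while its relatives Sprr1a and Sprr4 differed by -2.51 and -3.02. Small proline-rich genes are similar in sequence, and their probe sets may share transcripts.

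All 16 measured enzymes and transporters of the lipid envelope were below 0, and 9 passed 2-fold. The median was -1.12. Abca12, the lipid transporter of lamellar granules, was 9.95-fold lower, a fold that may understate the difference, since its log2 level of 5.80 on the HDAC3cKO-labelled array is as low as that of Casp14. The lipoxygenases Alox12b and Aloxe3, which oxidise the ceramides that are bound to the envelope, differed by -2.44 and -2.36, and Sdr9c7, which acts after them, by -2.56. Cers3, the synthase of the very long ceramides of skin, differed by -0.81, and the broadly expressed enzymes Ugcg and Smpd1 differed by -0.33 and -0.30.

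Of 16 scaffold and corneodesmosome genes, 6 passed 2-fold in the lower direction and none in the higher, and the median was -0.39. They included the suprabasal keratins Krt10 and Krt1 at -3.53 and -3.11, the skin keratin Krt77 at -2.83, and Cdsn, corneodesmosin, at -2.03. The plakins that line the desmosome and the early envelope differed little: Dsp by -0.03, Evpl by -0.26 and Ppl by -0.36, and the plaque protein Jup by -0.43. Of 16 genes of desquamation and filaggrin processing, 6 passed 2-fold in the lower and 2 in the higher direction, and the median was -0.38. Klk7, a protease of the outermost layers, was 15.9-fold lower, its inhibitor Spink5 7.61-fold lower and Klk14 6.31-fold lower. Asprv1, a protease that processes filaggrin, differed by -2.50. Prss8, a membrane-anchored protease upstream of the barrier, was 2.09-fold higher but 0.997 on the log2 scale after loess scaling, just short of 2-fold, and Pcsk6, a proprotein convertase, was 2.75-fold higher.

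**Figure D4:**
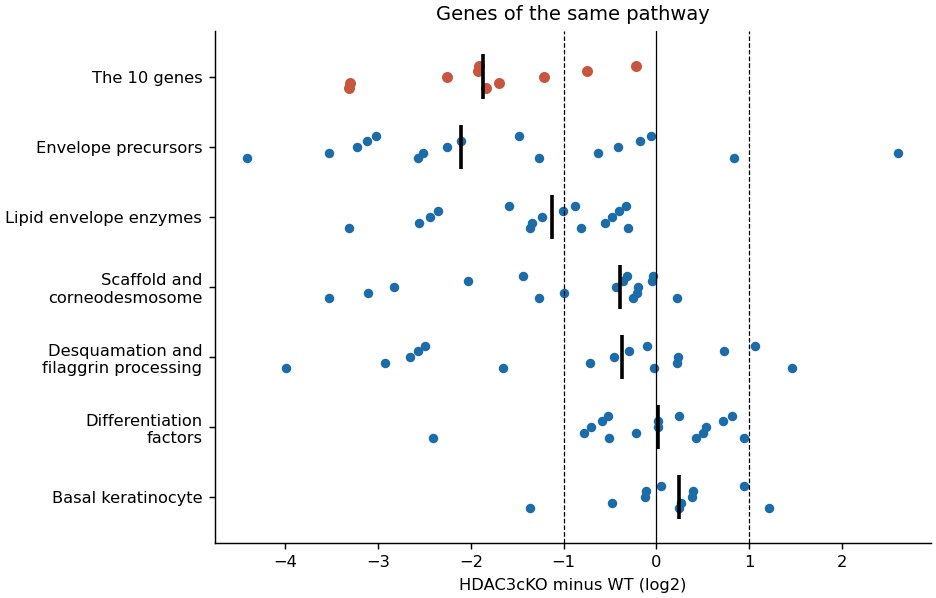
Differences (HDAC3cKO minus WT, log2) of the 10 genes in red and of the measured genes of 6 pathway lists in blue, with list medians as black bars; dashed lines mark 2-fold. The medians run from -2.11 for envelope precursors and -1.87 for the 10 genes to 0.02 for differentiation factors and 0.25 for basal keratinocyte genes.

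Transcription factors of keratinocyte differentiation and genes of the basal layer were set beside these lists. Among 16 measured factors 1 passed 2-fold in the lower direction and none in the higher, and the median was 0.02. That gene was Ehf, an epithelial Ets factor, at -2.41. Klf4, a factor of barrier formation, differed by 0.02 and changed sign with the scaling, Zfp750 by 0.42, Ovol1 by -0.78 and Trp63, the factor of the basal layer, by 0.82. Among 11 basal genes 1 was lower and 1 higher. Krt14 differed by -1.36 while its partner Krt5 differed by 0.40, and Krt15 was 2.31-fold higher.

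Chromosomal neighbours were compared through the 4 nearest measured genes on each side of each of the 10, in the gene order of GRCm38.p6. Of 64 such neighbours outside the set, 3 (4.69%) passed 2-fold in the lower direction and none in the higher, beside 5.88% and 2.97% over all named genes, so the share among neighbours was near the background. The median was -0.02. Calml3, next to Calm4, differed by -3.39. Cd177, a glycoprotein of the uPAR family and the fourth measured gene beyond Lypd3, was 12.1-fold lower, at -3.59, while the 3 measured genes between them, Tex101, Lypd10 and Lypd11, differed by between -0.19 and 0.19 at log2 levels of at most 5.98 on the WT-labelled array. Cideb, near Tgm1, differed by -1.02 and was within 2-fold after median centring. Around Sbsn, Dmkn and Krtdap the flanking genes Gapdhs and Ffar2 differed by 0.07 and -0.14, so on these arrays the 2-fold differences stopped at the ends of that group of 3 genes. Ffar2 and Gapdhs had log2 levels of 6.62 and 6.46 on the WT-labelled array, and at such low values, as at those of the genes between Lypd3 and Cd177, a difference is hard to see.

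**Figure D5:**
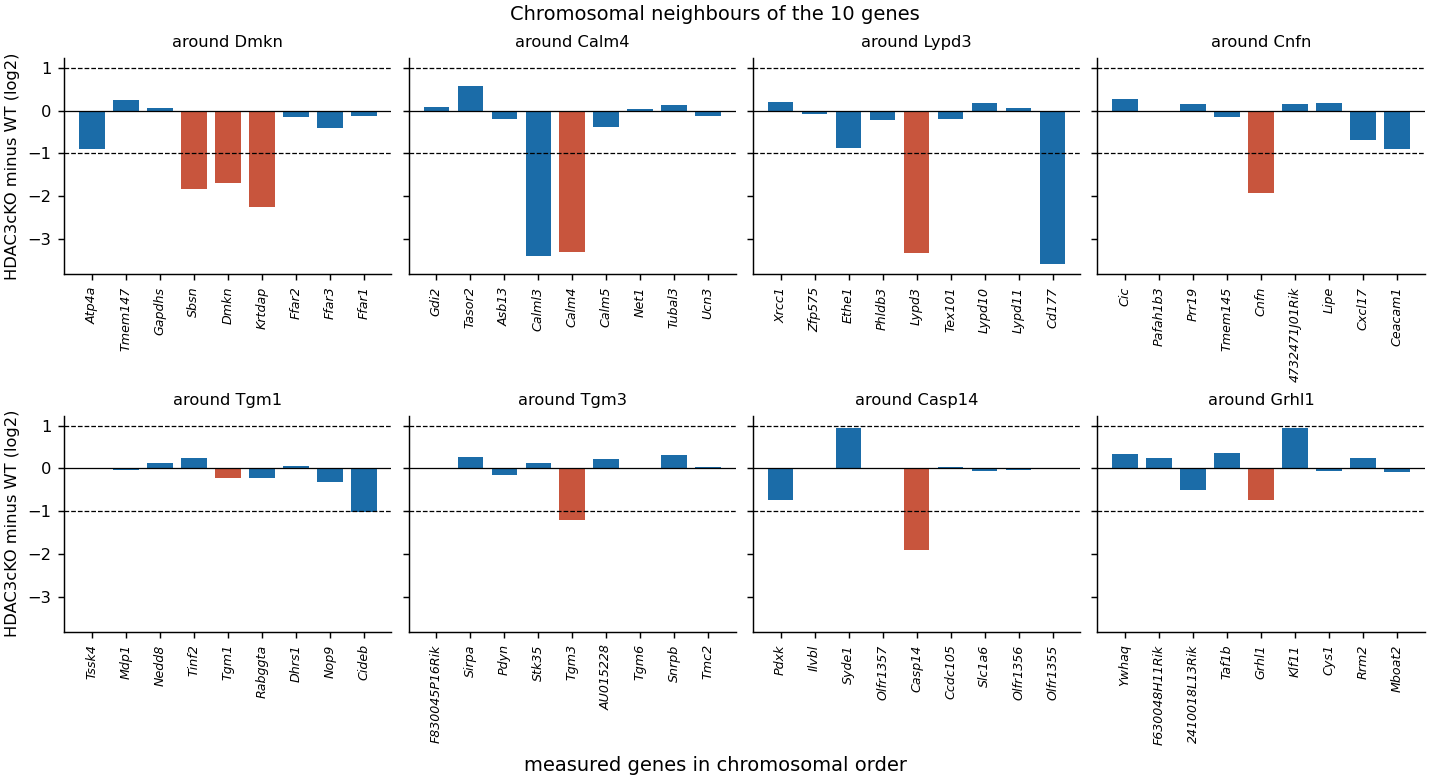
Differences (HDAC3cKO minus WT, log2) of the measured genes around each of the 10 genes (red bars) and of their neighbours (blue bars), in chromosomal order; Sbsn, Dmkn and Krtdap share 1 panel and dashed lines mark 2-fold. Calml3 beside Calm4 and Cd177 near Lypd3 have bars as long as those of Calm4 and Lypd3. Cideb near Tgm1 is the only other neighbour past 2-fold.

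Markers of some other cells also moved between the arrays. Their counts stand beside 5.88% of all named genes that were lower by 2-fold or more and 2.97% that were higher. All 10 tuft cell markers, of chemosensory epithelial cells, passed 2-fold in the lower direction, Trpm5 at -4.70, with summed intensities of 34906 on the WT-labelled array and 2727 on the HDAC3cKO-labelled array. For 12 macrophage and dendritic cell markers the sums were 14155 and 6248, all 12 were below 0 and 2 passed 2-fold. These sums rest largely on those 2, Lyz2 at log2 levels of 12.29 and 11.21 and Laptm5 at 12.16 and 10.08. The median of that list was -0.74. For 10 endothelial markers the sums were 8351 and 17353, with 6 past 2-fold, led by Emcn at 2.20. That count was 5 after quantile normalization and 4 after loess scaling. For 10 fibroblast markers the sums were 7384 and 17077, with 3 past 2-fold, led by Mfap5 at 2.40. The fibroblast sums rest largely on Dcn, at log2 levels of 11.84 and 13.29, and the median of that list was 0.64, with 2 of the 10 below 0. Of 7 markers of cortical epithelium 6 were above 0, with a median of 0.73. At least 2-fold higher were 2, Psmb11 at 1.54 and Prss16 at 1.03. After loess scaling Prss16 was within 2-fold and Cd83, at -0.95 before that scaling, was at least 2-fold lower. Of 11 thymocyte and 5 B cell markers 1 each was at least 2-fold lower, Cd4 at -1.26 and Cd79b at -1.76, and after loess scaling 2 thymocyte markers were. The list medians were -0.22 for thymocytes and -0.32 for B cells, and a single gene is not read as a shift of either list. Rag2, a thymocyte marker, had the same log2 level, 4.85, on both arrays. No marker had an intensity of 0, since no deposited value was 0. The part of these cells in the values of the 10 genes, and in the higher value of Tgm2, was not tested. The 6 late proteins had summed intensities of 13389 and 3033 on the same arrays.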

How the data were processed

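RNA of sorted mTEC was hybridized to Affymetrix Mouse Gene ST arrays, 1 per group, after amplification and biotin labelling, per the labels' protocols. The deposited values were intensities on a linear scale made with RMA, which corrects background, normalizes arrays and summarises probes, per the submitters' processing notes. The sources used here give neither its settings nor a genome build. Intensities were transformed to log2 with no pseudocount. There is no detection call, and the number of arrays limits the precision.

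Of 34760 probe sets, 21640 had 1 gene symbol in the platform annotation (21553 matched to RefSeq genes of GRCm38.p6 by identifier), 1321 had several and 11799 had none. The probe set with the highest mean was used per gene. The threshold was 2-fold, with no test. The 10 genes and all lists were chosen with earlier results of these data known. Named genes were the 10, a list of genes fixed by name (some not reported here), up to 3 each way with the largest differences past 2-fold in each list (fewer for markers), neighbours past 2-fold, and the 5 nearest by level. Lypd1, Lypd5, Sprr1a, Sprr4, Aloxe3, Cdsn, Asprv1 and genes within 2-fold were named after their values were seen. List genes were matched by symbol only. Alternatives were median centring, quantile normalization, loess (span 0.3), an offset of 16, other probe sets per gene, other thresholds and a filter on low values. Counts and scalings were tested on simulated data. Scripts ran under Python 3.11.15 with pandas 2.3.3 and numpy 2.4.6. The loess fit came from statsmodels 0.14.6.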

Additional observations from a re-analysis of the deposited data

How the results depend on the processing

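Under 6 alternatives, which were 3 scalings, an offset and 2 choices of probe set, each of the 10 genes kept its direction and its side of 2-fold, in 60 of 60 values. Both choices of probe set leave the 10 genes as they are, since each had 1. The widest ranges were those of Calm4, between -3.31 and -3.05, and Casp14, between -1.91 and -1.65. The median of the 10 lay between -1.89 and -1.73 over these settings, the expression filter and the mean, and between -1.91 and -1.83 when each gene was left out in turn. At 4-fold, 3 of the 10 were lower, with 368 of all genes lower and 77 higher, and at 1.5-fold 2238 of all genes were lower and 1661 higher, in place of 1173 and 593 at 2-fold. Of the 10, 7 were above the expression filter, and 5 of these 7 were at least 2-fold lower. Among all genes above it, 673 were at least 2-fold lower and 453 higher. These counts are smaller because the filter, set at the median of gene means, leaves fewer genes to count. A gene can pass that filter through the array on which it is high. Among the 5, Lypd3 did so, with log2 levels of 10.98 on the WT-labelled array and 7.66 on the HDAC3cKO-labelled array, beside a filter value of 8.03. Scaling moved the median of all genes by at most 0.05. Of 280 list genes and neighbours followed, 11 changed their call, among them Nipal4, Cideb, Prss8 and Dsg1b, whose differences lie near 2-fold. Another was Flg2, at -1.26, which came within 2-fold only under the offset of 16. Its log2 levels were low, 6.41 on the WT-labelled array and 5.15 on the HDAC3cKO-labelled array. Of 240 list counts, 236 stayed within 1.5 times. No paired analysis was possible because each group had 1 array and no result comes from a test.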
